A study of Mus musculus with 6 samples.

Results

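The genes described here are 10 transcripts known as targets of the progesterone receptor (PGR) or of the glucocorticoid receptor, which share a DNA element: Fkbp5, Fkbp4, Tsc22d3, Sgk1, Zbtb16, Per1, Klf9, Klf15, Dusp1 and Cebpd. They were chosen by name, with earlier results of these data known, and all 10 were found among the 24964 gene symbols of the deposited table. RNA was sequenced from mouse uterus collected around implanted embryos on gestation day 13. The series held 3 control libraries and 3 libraries whose genotype is given as a myometrial PGR knockout. The myometrium is the muscular wall of the uterus. The sources used here do not give the strain, the age, the allele, the Cre driver or the genotype of the controls. The tissue was not restricted to muscle, so the libraries also hold cells in which the receptor was not targeted. Nothing in the labels ties each library to an animal of its own, so a p-value here measures the spread among these libraries, which may be technical.

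Without hormone, both receptors are held in complexes with heat shock proteins and cochaperones, the glucocorticoid receptor mainly in the cytoplasm and PGR largely in the nucleus. With hormone they bind the same palindromic DNA element, so progesterone and glucocorticoid can switch on the same genes in a cell that holds both receptors. In the uterus, progesterone acting through PGR keeps the muscle quiescent in pregnancy and supports the stroma around the embryo. Many shared targets feed back on hormone action or dampen inflammation, and several are themselves transcription factors.

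Promoter sequence was searched for the hormone element close to the starts of these genes. Sequence farther from a start, or after it, was not searched. RefSeq promoters (GRCm38.p6, the assembly also called mm10) matched 8 of the 10 members, all but Zbtb16 and Cebpd, with 16 start sites, and the 250 bases before each start were searched on both strands. The palindrome both receptors can bind, searched as GNACA and TGTNC with 3 bases between them, was found at 1 of the 16 starts, an upstream start of Sgk1, and at 0.387% of 32851 promoters of the same length. Its half-site TGTTCT, which can be part of the palindrome, was found at 4 of the 16 starts, of Sgk1 and Tsc22d3, and at 16.1% of all promoters. The E-box CACGTG, bound by clock and other basic helix-loop-helix factors, was found at 5 of the 16, 1 each of Dusp1, Fkbp5, Klf15, Per1 and Sgk1, and at 6.02% of all promoters. TGACG, the half-element of cyclic AMP response, was found at 8 of the 16, of Dusp1, Fkbp4, Klf15, Klf9, Per1, Sgk1 and Tsc22d3, and at 17.8%. Starts of 1 gene can share sequence, so they are not independent. The E-box and TGACG each hold CG, and the shares over all promoters were not matched for base composition. Percent GC at the starts with an E-box was 68.4, 68, 72, 62 and 44.8, in the order given above. Starts with TGACG had 68.4, 63.2, 72, 59.6, 62, 64, 46.4 and 49.2, beside a median of 52.4 over all promoters. The 4 promoters printed are the Sgk1 promoter with the palindrome, the Tsc22d3 promoter with a receptor half-site alone, and the promoters of Klf15 and Per1 with E-boxes, each 5′ to 3′ in the sense of the gene with every match in capitals. In Sgk1 the run of 15 capitals is the palindrome with both of its half-sites, starting 964 bases before the next start downstream, and an E-box overlaps a further half-site near the 5′ end. In Tsc22d3 the capitals mark the half-site, in Klf15 2 E-boxes and 2 copies of TGACG on opposite strands, and in Per1 1 TGACG and 1 E-box.
Sgk1, chr10:21993640-21993889, plus strand: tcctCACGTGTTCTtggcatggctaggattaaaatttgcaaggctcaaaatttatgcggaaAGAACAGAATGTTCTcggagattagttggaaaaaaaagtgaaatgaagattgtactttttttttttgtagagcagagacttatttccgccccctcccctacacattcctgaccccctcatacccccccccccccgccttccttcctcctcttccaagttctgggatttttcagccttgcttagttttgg
Tsc22d3, chrX:140600523-140600772, minus strand: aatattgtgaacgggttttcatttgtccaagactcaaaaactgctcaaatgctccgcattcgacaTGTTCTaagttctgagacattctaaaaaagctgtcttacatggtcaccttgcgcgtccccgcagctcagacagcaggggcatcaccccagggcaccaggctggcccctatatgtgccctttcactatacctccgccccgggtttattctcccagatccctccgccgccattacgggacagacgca
Klf15, chr6:90462326-90462575, plus strand: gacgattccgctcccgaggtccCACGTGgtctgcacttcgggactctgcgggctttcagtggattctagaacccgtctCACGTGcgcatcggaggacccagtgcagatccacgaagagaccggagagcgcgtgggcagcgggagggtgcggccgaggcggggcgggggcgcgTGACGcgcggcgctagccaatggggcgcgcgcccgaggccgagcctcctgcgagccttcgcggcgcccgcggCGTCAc
Per1, chr11:69098699-69098948, plus strand: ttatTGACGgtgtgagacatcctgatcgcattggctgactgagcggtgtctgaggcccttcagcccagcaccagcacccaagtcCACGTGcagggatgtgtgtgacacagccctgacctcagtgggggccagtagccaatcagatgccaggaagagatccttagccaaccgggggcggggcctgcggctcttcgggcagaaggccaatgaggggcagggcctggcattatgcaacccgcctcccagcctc
A match is a run of letters, not a measured site, and no binding was measured in this series.

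Levels are given in FPKM as deposited, by the usual definition the fragments of a gene divided by its length and by the library's size. Summed FPKM ran from 357126 to 377091 per library. Differences are in log2(FPKM + 1), the labelled deficient libraries minus the controls, a scale that understates changes of low genes. Genes averaging 1 FPKM or more were tested with limma, and a gene was called at an adjusted p under 0.05. Pgr, the targeted gene, had control levels of 9.72, 8.33 and 12.1 FPKM, against 11.3, 12.4 and 7.73 FPKM in the labelled deficient libraries (log2 difference 0.05, SE 0.19, limma adjusted p = 0.91). The level over the whole gene therefore does not bear out the label, and the sources used here do not say which exons of Pgr were targeted, so the second group is called the labelled deficient libraries and every direction rests on that label. Replicate 3 of each group stood apart, with correlations across genes of 0.983 and 0.982 to the other controls and of 0.976 and 0.971 to the other labelled deficient libraries, against 0.992 and 0.991 within the remaining pairs. All 10 smooth muscle markers fell, and their summed level was between 8090 and 9873 FPKM in the controls and between 3269 and 3853 FPKM in the labelled deficient libraries, with none of the 10 at 0 (5 called without control 1 or control 2). Of 5 mast cell markers tested 4 fell (summed level of all 7 markers between 28.8 and 35.5 against between 3.00 and 5.31 FPKM), and of 7 epithelial markers 2 rose (between 597.6 and 663.6 against between 765 and 971 FPKM for all 8), although 0 did without control 2, control 3, labelled deficient 1 or labelled deficient 2. No marker of fibroblasts (7 tested), endothelium (7), macrophages (7), decidual stroma (6) or neutrophils (3) was called, 1 of 2 adipocyte markers fell, 1 erythroid marker rose while 4 globin genes were listed at 0, and no marker of T and NK cells or trophoblast reached the minimum level. At an unadjusted p under 0.05 were 3 fibroblast, 1 endothelial, 0 macrophage, 3 decidual and 0 neutrophil markers.

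None of the 10 shared targets was called, although 9 of them lay lower in the labelled deficient libraries and 1, Fkbp4, lay higher. All 10 were tested. With limma, 0 passed an adjusted p of 0.05, where 3.34% of the 12500 genes tested did, and their adjusted p ran from 0.052 for Klf15 to 0.59 for Per1. At an unadjusted p under 0.05 there were 7, of which 6 were lower and 1 higher, where 7.09% of all genes tested were lower and 14.4% higher by that rule. In 5 members the 3 labelled deficient libraries all lay below the 3 controls, which held for 8.16% of all genes, and in 1 they all lay above, which held for 20.8%. The median difference of the 10 was -0.48, beside 0.06 over all genes tested, of which 35.1% were below 0. An exact permutation test of 3 libraries against 3 cannot go below p = 0.1, and that value was reached by the 6 members whose groups did not overlap. The smooth muscle, mast cell and epithelial marker sums moved with the same groups. So did that of decidual stroma, between 177.6 and 461.5 FPKM in the controls and between 90.2 and 124.6 FPKM in the labelled deficient libraries. Of the 6 decidual markers tested, however, only 3 lay lower, and 1 lay higher without overlap. The fibroblast sum also moved with the groups, between 5929 and 6437 against between 5287 and 5397 FPKM. The low adipocyte, erythroid and T and NK cell sums did not overlap either, while endothelial, macrophage and neutrophil sums did. The part of these cell types in the differences of the members was not tested. In bulk tissue, fewer cells of a type and less RNA per cell cannot be told apart.

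**Figure D1:**
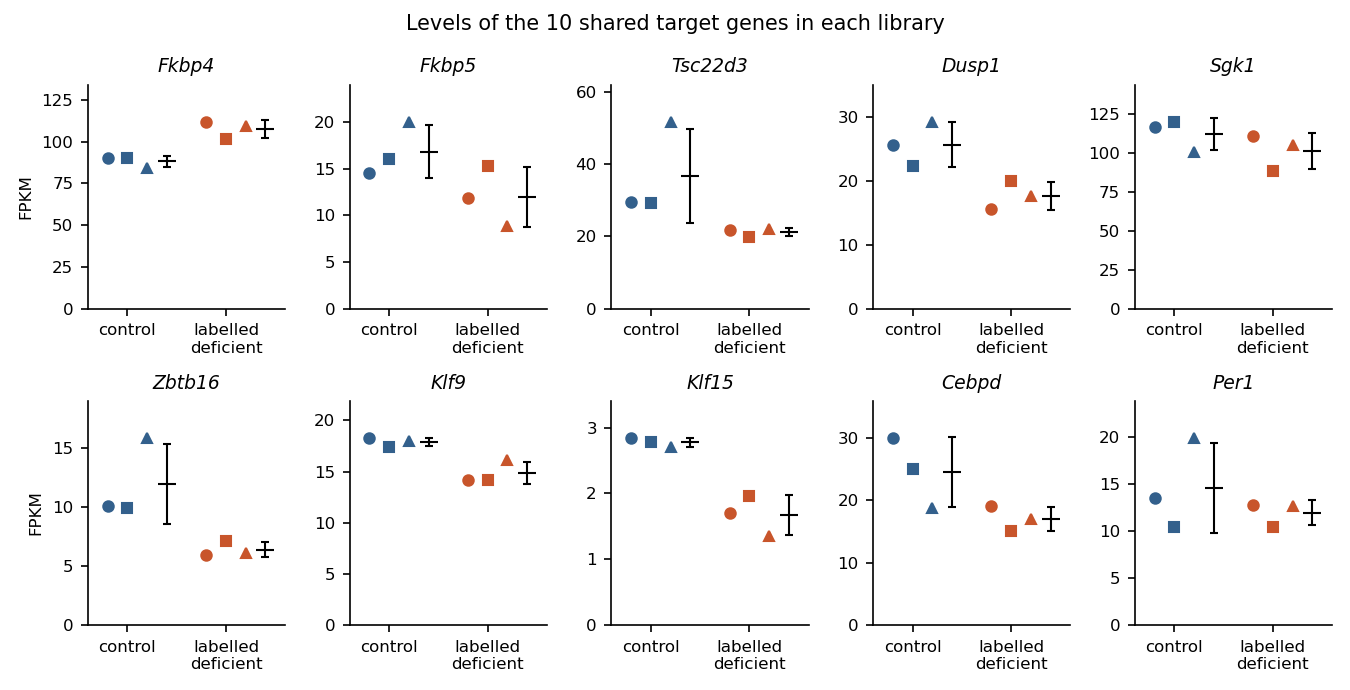
FPKM of each of the 10 genes in the 3 control (blue) and 3 labelled deficient (orange) libraries, where circles, squares and triangles are replicates 1, 2 and 3 and the black bars give mean and SD. The groups do not overlap for Fkbp4, Tsc22d3, Dusp1, Zbtb16, Klf9 and Klf15.

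The cochaperones Fkbp4 and Fkbp5 lay in opposite directions. Fkbp4 (chromosome 6, 128429735 to 128438677, minus strand) in GRCm38 encodes FKBP52, an immunophilin that helps steroid receptors bind hormone and without which the mouse uterus does not respond properly to progesterone. It measured 90.2, 90.1 and 84.1 FPKM across the controls, while the labelled deficient libraries gave 112, 101 and 109 FPKM. Every labelled deficient library lay above every control, and the means of 88.1 ± 3.5 and 107.5 ± 5.5 FPKM (SD, n = 3 each) differ by 22.0%. The log2 difference was 0.28 (SE 0.07, limma adjusted p = 0.090). Fkbp5 (chromosome 17, 28399094 to 28517527, minus strand) encodes FKBP51, which lowers the hormone affinity of the same receptors and is induced by them, a negative feedback. It read 14.5, 16.0 and 20.0 FPKM in the control libraries, and the labelled deficient libraries read 11.9, 15.3 and 8.83 FPKM. The groups overlapped, since labelled deficient 2 lay above control 1. The log2 difference of Fkbp5 was -0.48 (SE 0.20, limma adjusted p = 0.24) with a 95% confidence interval from -0.96 to 0.01, and it was -0.29 without labelled deficient 3 and -0.17 without replicate 3 of both groups. The level of Fkbp4 was 6.22, 5.63 and 4.19 times that of Fkbp5 in the controls and 9.43, 6.63 and 12.4 times in the labelled deficient libraries. These ratios did not overlap, although the ratio in labelled deficient 2 was close to that in control 1.

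Tsc22d3 and Dusp1 lay lower in every labelled deficient library. Tsc22d3 (chromosome X, 140539528 to 140600659, minus strand) encodes GILZ, the leucine zipper protein through which glucocorticoid restrains inflammatory signalling. It had control levels of 29.4, 29.1 and 51.6 FPKM, against 21.8, 19.8 and 22.0 FPKM in the labelled deficient libraries. The labelled deficient libraries were close to each other (21.2 ± 1.2 FPKM, SD, n = 3), while control 3 lay at 1.77 times the mean of controls 1 and 2, which made the control SD 12.9 FPKM. The log2 difference of Tsc22d3 was -0.72 (SE 0.22, limma adjusted p = 0.14). Without control 3 it was smaller, -0.45, with a narrower error (SE 0.07), and limma then called it (adjusted p = 0.048), in a fit that called 2.34% of all genes. Dusp1 (chromosome 17, 26505590 to 26562128, minus strand) encodes a phosphatase that switches off the MAP kinases p38 and JNK and is induced by glucocorticoid and by stress. It measured 25.6, 22.2 and 29.2 FPKM across the controls, while the labelled deficient libraries gave 15.6, 19.9 and 17.6 FPKM. Every labelled deficient library lay below the lowest control, with a mean 31.1% lower (log2 difference -0.51, SE 0.13, limma adjusted p = 0.093). The annotated span of Dusp1 overlaps Ergic1 and Gm8225 on the opposite strand and 2 further gene models on its own strand, and that of Fkbp5 overlaps 2 models on each strand. Such spans include introns, and overlap of exons was not checked. The sources used here do not say whether the libraries keep strand, so any reads shared by such genes cannot be told apart. Ergic1 was between 31.3 and 40.8 FPKM in the controls and between 31.1 and 41.4 FPKM in the labelled deficient libraries.

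Sgk1, with the palindrome in a promoter and the highest mean level of the 10, did not differ beyond its spread. Sgk1 (chromosome 10, 21882184 to 21999903, plus strand) encodes a serum and glucocorticoid regulated kinase that controls sodium transport and cell survival. Its level read 116, 119.9 and 100.4 FPKM in the control libraries, and the labelled deficient libraries read 111, 88.1 and 105 FPKM. The groups overlapped, with 1 library of each group, control 3 and labelled deficient 2, below its partners. The log2 difference of Sgk1 was -0.15 (SE 0.11, limma adjusted p = 0.49), with a 95% confidence interval from -0.42 to 0.12, and it lay between -0.23 without control 3 and -0.055 without labelled deficient 2.

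The transcription factor genes Zbtb16, Klf9, Klf15 and Cebpd all lay lower. Zbtb16 (chromosome 9, 48654297 to 48836222, minus strand) encodes PLZF, a zinc finger repressor that progesterone and glucocorticoid both induce in uterine stroma. It had control levels of 10.1, 9.92 and 15.8 FPKM, against 5.94, 7.08 and 6.13 FPKM in the labelled deficient libraries. The mean was 46.5% lower with no overlap (log2 difference -0.78, SE 0.18, limma adjusted p = 0.076). Control 3 again lay highest, at 1.58 times the mean of the other controls. Without it the log2 difference of Zbtb16 was -0.58 and limma called it (adjusted p = 0.046).

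Klf15 and Klf9 are Krüppel-like zinc finger factors; Klf9 binds PGR as a coregulator and Klf15 is a direct glucocorticoid target known from muscle metabolism. Klf15 (chromosome 6, 90462576 to 90475238, plus strand) was the lowest member and had the smallest p. It measured 2.84, 2.78 and 2.71 FPKM across the controls, while the labelled deficient libraries gave 1.70, 1.96 and 1.35 FPKM. The coefficient of variation of the controls was 2.33%, and the mean of the labelled deficient libraries was 39.8% lower. The log2 difference of Klf15 was -0.51 (SE 0.10, limma adjusted p = 0.052). Klf15 passed with median-of-ratios scaling (adjusted p = 0.033, in a fit that called 4.11% of all genes), with quantile normalization (0.037, 3.74%), without the variance trend (0.046, 3.19%), with array weights (0.014) and without replicate 3 of both groups (0.0498), and did not pass in the remaining alternatives, where adjusted p reached 0.18. Klf9 (chromosome 19, 23141226 to 23168134, plus strand) read 18.2, 17.4 and 18.0 FPKM in the control libraries, and the labelled deficient libraries read 14.2, 14.2 and 16.1 FPKM. Its groups did not overlap, and its mean was 17.1% lower (log2 difference -0.26, SE 0.07, limma adjusted p = 0.11). Cebpd (chromosome 16, 15887286 to 15891031, plus strand) encodes C/EBP delta, a factor of acute inflammatory and hormone responses. It had control levels of 29.9, 25.0 and 18.8 FPKM, against 19.0, 15.0 and 16.9 FPKM in the labelled deficient libraries. Control 3 lay just below labelled deficient 1, so the groups overlapped (log2 difference -0.49, SE 0.17, limma adjusted p = 0.18). The annotated span of Cebpd overlaps that of Spidr on the opposite strand, and Spidr was between 3.55 and 4.82 FPKM in all 6 libraries.

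Per1, a repressor of the circadian clock that glucocorticoid also induces directly, gave no difference beyond its spread. It measured 13.5, 10.4 and 19.8 FPKM across the controls, while the labelled deficient libraries gave 12.7, 10.4 and 12.6 FPKM. Per1 (chromosome 11, 69095217 to 69109960, plus strand) differed by -0.23 in log2 (SE 0.22, limma adjusted p = 0.59), which was 0.0028 without control 3, -0.14 without labelled deficient 2 and -0.43 without control 2.

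**Figure D2:**
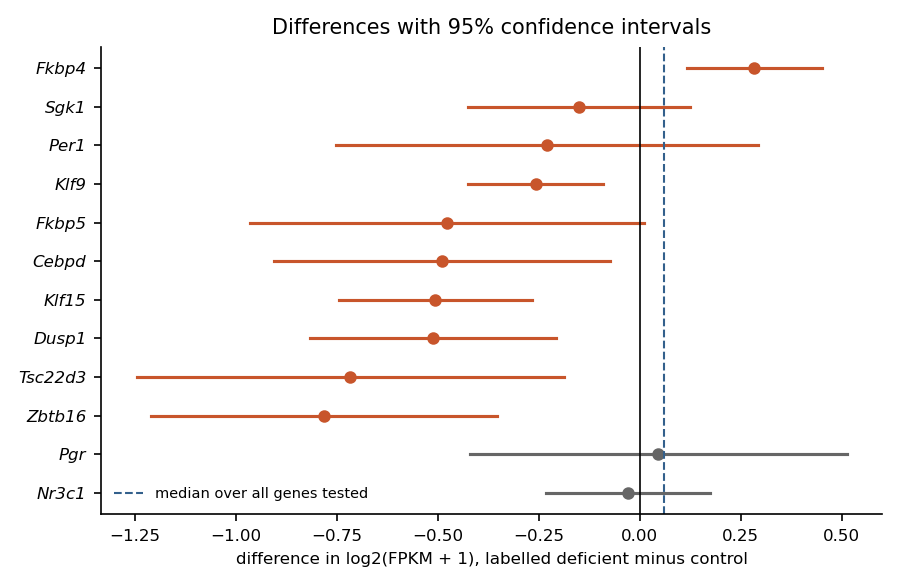
Difference in log2(FPKM + 1) between the groups (points) with 95% confidence intervals (lines) for the 10 genes in orange and for the receptor genes Pgr and Nr3c1 in grey, from limma, with the median over all genes tested dashed at 0.06. The intervals of 7 of the 10 lie clear of 0, and those of Sgk1, Per1 and Fkbp5 do not.

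The libraries differed among themselves as well as between groups. Control 3 held the highest value of the 6 libraries for Fkbp5, Tsc22d3, Zbtb16, Per1 and Dusp1, 5 of the 10, where it did so for 7.51% of all genes tested. The same library was the lowest control for Fkbp4, Sgk1, Klf15 and Cebpd. Labelled deficient 1 lay below every control for 6 members, labelled deficient 2 for 8 and labelled deficient 3 for 7, where they did so for 22.1%, 16.6% and 21.3% of all genes tested. Each lay above every control for 1 member, Fkbp4, and for 39.6%, 44.1% and 41.8% of all genes. Labelled deficient 3 was lowest for Fkbp5 and Klf15, at 0.65 and 0.74 times the mean of the other 2 labelled deficient libraries. In a fit added after the data were seen, without replicate 3 of both groups, limma called Tsc22d3, Zbtb16, Klf9 and Klf15 as lower, 4 of 10 where 10.2% of all genes were called. With array weights, which gave control 3 a weight of 0.383 and labelled deficient 3 a weight of 0.455, Zbtb16, Klf9, Klf15, Dusp1 and Cebpd were called lower and Fkbp4 higher, 6 of 10 where 14.2% of all genes were called.

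**Figure D3:**
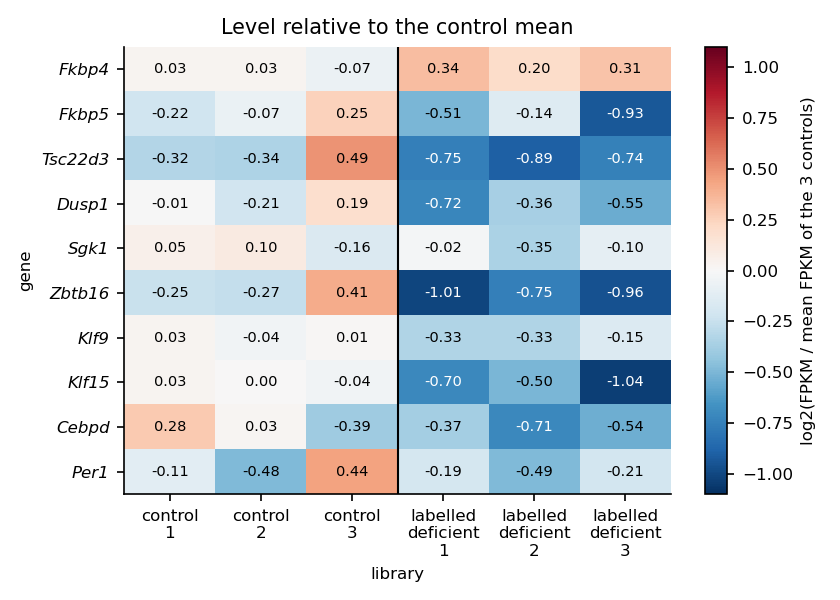
Log2 ratio of each gene's FPKM to the mean of the 3 controls, by library (columns), with the value printed in each cell and the groups divided by a black line. Control 3 is above the control mean for Tsc22d3 (0.49), Per1 (0.44) and Zbtb16 (0.41) and below it for Cebpd (-0.39), and the 3 labelled deficient libraries lie between -1.01 and -0.74 for Zbtb16 and Tsc22d3.

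The receptors themselves and the enzymes that supply their hormones gave no call. Nr3c1, the glucocorticoid receptor gene, read 4.90, 5.44 and 5.59 FPKM in the control libraries, and the labelled deficient libraries read 4.64, 5.47 and 5.46 FPKM (log2 difference -0.03, SE 0.08, limma adjusted p = 0.87). Its sign turned positive, 0.011, after rescaling every library to the same sum. Of 19 genes for receptors and hormone supply 13 were tested, with 0 called by limma, 4 at an unadjusted p under 0.05 and a median of 0.09, which ran from 0.034 without labelled deficient 2 to 0.21 without labelled deficient 3. Those 4 lay higher without overlap: Esr1, the estrogen receptor alpha (26.6 ± 0.7 and 33.4 ± 2.4 FPKM, SD, n = 3 each), Srd5a1, a steroid 5-alpha-reductase (24.1 ± 3.4 and 38.7 ± 9.4 FPKM), Hsd11b2, which inactivates glucocorticoid (219.8 ± 40.2 and 297.7 ± 18.3 FPKM, log2 difference 0.45, and 0.30 without control 2), and H6pd, which supplies the cofactor of the enzyme that reactivates it (146.2 ± 7.8 and 181.7 ± 19.9 FPKM). Srd5a1 was called without labelled deficient 3 (limma adjusted p = 0.040), and Esr1 after the rescaling (0.046). Over all genes tested, 20.8% lay higher without overlap and 14.4% were higher at an unadjusted p under 0.05.

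Chaperones and coregulators of the receptors also gave 0 calls with limma, although array weights called 3 coregulators, as did the fit without replicate 3 of both groups. Of the 15 chaperone genes, all tested, 0 were at an unadjusted p under 0.05 and the median was 0.05 (-0.017 with median-of-ratios scaling, 0.016 without control 3 and -0.0080 without replicate 3 of both groups). Hsp90ab1, the constitutive HSP90, was at 587.9 ± 46.3 and 675.4 ± 44.0 FPKM (SD, n = 3 each, log2 difference 0.20), Hspa8 differed by 0.28 (0.14 without control 2), Dnajb1 by 0.32 (0.15 without labelled deficient 3) and Unc45a by -0.10. Of 14 coregulator genes, all tested, 4 were at an unadjusted p under 0.05 and the median was 0.15. They were Arid1a, a chromatin remodelling subunit (0.29), Nrip1, the corepressor RIP140 (0.28), Crebbp, a histone acetyltransferase (0.22), and Ncor1, a corepressor (0.18), each higher in all 3 labelled deficient libraries than in any control. That held for 20.8% of all genes tested, and 14.4% were higher at an unadjusted p under 0.05.

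Among 40 other genes known to respond to these receptors, calls went both ways. With 38 tested, 4 fell and 3 rose, where 1.99% of all genes fell and 1.34% rose, and the median was -0.06. The split over all genes depended on scaling, 168 higher and 249 lower as deposited but 218 and 211 after rescaling to the same sum and 123 and 391 with median-of-ratios scaling. Hif3a, an inhibitory hypoxia-inducible factor subunit, fell, with means of 3.65 ± 0.41 and 1.28 ± 0.20 FPKM (SD, n = 3 each, log2 difference -1.02, limma adjusted p = 0.0065). Errfi1, a feedback inhibitor of the EGF receptor, fell from 109.8 ± 21.0 to 46.8 ± 7.3 FPKM, and Cited2, a coregulator that binds p300, from 25.5 ± 1.5 to 17.5 ± 0.9 FPKM. Arrdc2, an arrestin-domain protein, rose from 5.40 ± 0.02 to 7.91 ± 0.36 FPKM (log2 difference 0.48, limma adjusted p = 0.014). Chosen after their values were seen, the other calls were a fall of Map3k6 (-0.56) and rises of Foxo1, a forkhead factor that cooperates with PGR in stroma (0.58), and the scaffold gene Nedd9 (1.03). Of these 7, Hif3a passed in every alternative that gave it a value. It is under the minimum mean of 5 FPKM, so that alternative gave it none. With 1 library left out, Arrdc2 and Cited2 were lost without control 1, control 2 or labelled deficient 1, Errfi1 and Nedd9 also without labelled deficient 2, Map3k6 when any library but labelled deficient 3 was left out, and Foxo1 when any 1 of the 6 was (adjusted p up to 0.15). The number called was 1 without control 1, control 2 or labelled deficient 1, 3 without labelled deficient 2, 12 with array weights and 13 without replicate 3 of both groups. Control 3 was the highest library for 12 of the 38 (31.6%), among them Mt1, a metallothionein gene chosen after its values were seen, at 219.9, 332.6 and 764.8 FPKM in the controls and between 253.6 and 305.8 FPKM in the labelled deficient libraries.

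Genes that work beside single members were measured for comparison. Of 17 clock genes tested out of 20, 0 were called with limma, 4 had an unadjusted p under 0.05 and the median was 0.13. Among all genes tested, 3.34% were called, and 7.09% were lower and 14.4% higher at an unadjusted p under 0.05. The clock median was 0.060 without control 2 and 0.066 without labelled deficient 2, and 1 clock gene was called without labelled deficient 3. Dbp, an output gene of the clock, was at 5.33 ± 1.21 and 9.39 ± 2.16 FPKM (SD, n = 3 each, log2 difference 0.71, limma adjusted p = 0.12), Nr1d2 differed by 0.22, Npas2 by -0.44 and Csnk1d by 0.16. From the pathway of Sgk1 and the sodium channel 14 genes were tested. Where 1.99% of all genes fell and 1.34% rose, 1 of these 14 fell and 0 rose. That gene was Nedd4l, the ubiquitin ligase that removes the channel and is inhibited by SGK1, from 8.23 ± 0.30 to 5.64 ± 0.59 FPKM (log2 difference -0.48, SE 0.08, limma adjusted p = 0.036). Nedd4l lost its call when any 1 of the 6 libraries was left out (adjusted p from 0.0505 to 0.14) and without replicate 3 of both groups. Also in that pathway, Ndrg2 differed by 0.43 (called without labelled deficient 3, adjusted p = 0.014) and Ndrg1 by -0.18 (-0.080 without labelled deficient 2, -0.29 without labelled deficient 3).

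Of 41 relatives of the members tested (other FKBP, TSC22, SGK, ZBTB, KLF, DUSP and C/EBP genes), 1 fell and 0 rose, with a median of -0.02. The shares over all genes tested were 1.99% and 1.34%. Klf7 fell, with means of 3.65 ± 0.10 and 2.53 ± 0.11 FPKM (SD, n = 3 each, limma adjusted p = 0.030), and was lost when any 1 library was left out except labelled deficient 3 (adjusted p from 0.053 to 0.14). Dusp3 differed by -0.43, Dusp16 by 0.33 and Klf3 by 0.23. Of 18 immediate early and handling genes tested, 0 were called with limma, 2 had an unadjusted p under 0.05 and the median was -0.11. Those 2 were Btg2, higher by 0.26, and Jun, lower by 0.45 (log2 difference -0.45), and next by p were Egr2 at -0.54 and the heat shock gene Hspa1a at -0.18 (-0.11 without labelled deficient 1). At an unadjusted p under 0.05, 7.09% of all genes tested were lower and 14.4% higher.

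**Figure D4:**
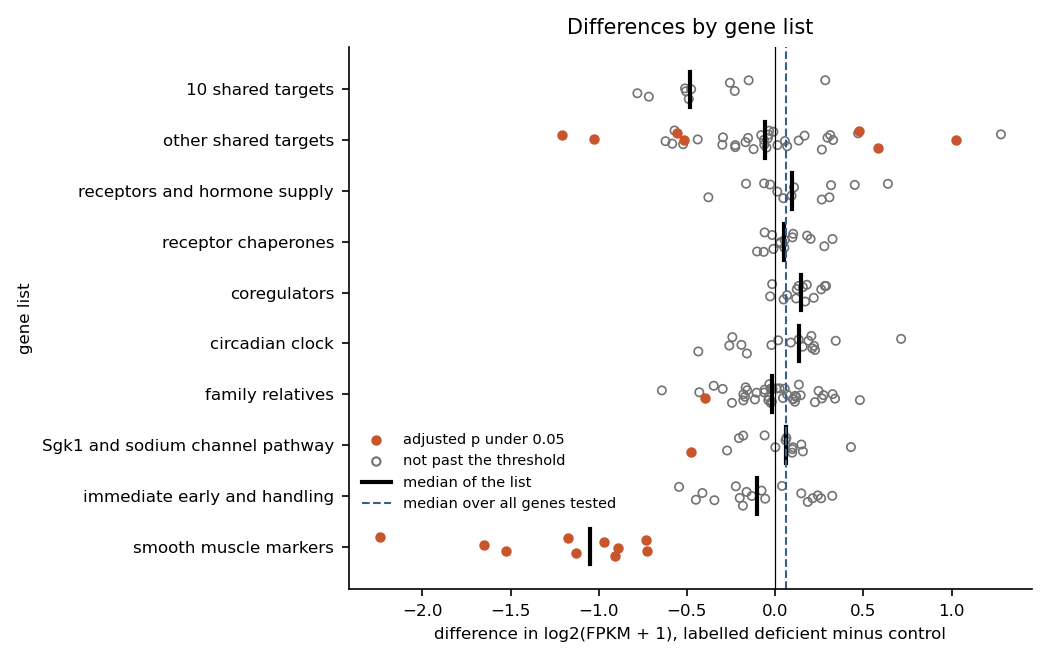
Difference in log2(FPKM + 1) for every tested gene of the 10 shared targets, 8 other lists and the smooth muscle markers (rows), with called genes filled in orange, others as open circles, list medians as black bars and the median over all genes dashed. The 10 shared targets have a median of -0.48 with no gene called, the 38 other shared targets tested lie on both sides of 0, and all 10 smooth muscle markers are called lower.

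Genes with a pattern closest to single members were found by the mean absolute distance over the 6 libraries. It was taken between log2(FPKM + 1) values centred on each gene's mean, a scale that understates changes of low genes. Closest to Klf15 were Lama4, a laminin chain (distance 0.031), Whrn, a scaffold protein (0.037), and Myl6, a myosin light chain (0.050), where the median over all other genes tested was 0.29. Mean levels in the controls and the labelled deficient libraries were 47.8 ± 0.1 and 34.3 ± 2.6 FPKM for Lama4, 1.85 ± 0.13 and 0.993 ± 0.189 FPKM for Whrn, and 1139 ± 38 and 810.9 ± 53.8 FPKM for Myl6 (SD, n = 3 each). These genes were picked for that pattern over the same libraries, so no test is given for them. Klf15 stood at 0.13 from Dusp1, its nearest neighbour among the 10. Closest to Fkbp4 were Mrpl38, a mitochondrial ribosomal protein (0.017), Prune1, a phosphatase (0.023), and Tmem190 (0.024), where the median was 0.15. A small distance is not an equal change in FPKM. Mean FPKM was 39.8% lower for Klf15, 28.1% for Lama4, 46.4% for Whrn and 28.8% for Myl6. For Fkbp4 it was 22.0% higher, for Mrpl38 21.7%, for Prune1 28.3% and for Tmem190 49.3%.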

How the data were processed

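Uterine RNA-seq of gestation day 13 was analysed in 6 libraries, 3 of each group. The deposited values are FPKM as the authors made them, for 24964 gene symbols and 6 libraries; all 6 columns were matched by name and 0 were left unmatched. STAR 2.7.0f, DESeq2 1.24.0, cutadapt 2.7 and mm10 are named in the submitters' processing notes, with no role; the counting step, gene lengths, strand setting and formula behind the values were not given in the sources used here. For genes of low FPKM, the most frequent ratio to control 1 was 1 in 4 libraries and 1.01 in labelled deficient 2, so a read has a similar worth in all columns. Since the formula behind the values was not given, the depth of single libraries remains unknown. Reads could not be recovered without gene lengths, so no count model was fitted and no counting interval is given.

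Limma 3.58.1 (R 4.3.3; lmFit, eBayes with trend) was run on log2(FPKM + 1) over the 12500 genes averaging 1 FPKM or more, with no covariate and Benjamini-Hochberg adjustment over all of them. On simulated data of 12500 genes with 200 changed, it recovered 82.5% at 2-fold with 6 false calls and 97% at 4-fold with 9, and made 0 calls with no change. Those changes were at least 2-fold in FPKM + 1, so larger in FPKM for low genes, with independent normal noise. No member differed by more than 1.87-fold in mean FPKM (Zbtb16, log2 difference -0.78 in FPKM + 1). Recovery of changes as small as those of the members was not simulated. Alternatives tried were no filter, pseudocounts of 0.1 and 0.5, a minimum mean of 5 FPKM, 3 other scalings, no trend, array weights, the replicate block, and leaving out each library or replicate 3 of both groups. The members and lists (8 other gene lists and 12 cell type marker lists) were chosen with earlier results of these data known. The text names the 10 members, Pgr, Nr3c1, up to 4 genes of smallest p per gene list, and the 3 genes nearest in pattern to the member of smallest p in each direction; others are said to be chosen after their values were seen, and 1 gene that the rule names is not reported here. Positions and overlaps are from GENCODE M21, promoters from RefSeq, both on GRCm38. Python 3.11.15 and scipy 1.17.1 served for the rest.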

Additional observations from a re-analysis of the deposited data

How the results depend on the processing

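The number of the 10 shared targets called was 0 in the main analysis and 1 (Klf15) with median-of-ratios scaling, with quantile normalization and without the trend, 6 with array weights, 4 without replicate 3 of both groups and between 0 and 2 with 1 library left out. Their median of -0.48 was -0.40 with array weights, -0.36 without replicate 3 of both groups and between -0.50 and -0.37 with 1 library left out, and it was negative in all 17 alternatives. Of all genes, 1770 were called with array weights, 1274 without replicate 3 of both groups and between 99 and 519 with 1 library left out, beside 417. Of the other shared targets, 12 were called with array weights, 13 without replicate 3 of both groups and between 1 and 7 with 1 library left out, beside 7. The labels do not say whether the replicate numbers pair the libraries. Deviations of same-numbered libraries from their group means correlated at -0.14, 0.079 and -0.13, and 2 of the 6 libraries correlated best with their own number. With 3 libraries per group, such correlations cannot settle whether the numbers are pairs. With the replicate block, 143 genes, 0 members and 3 other shared targets were called. Array weights called 2 receptor and hormone supply genes, 3 coregulators, 5 relatives, 2 genes of the Sgk1 pathway and 3 immediate early and handling genes, and the fit without replicate 3 of both groups called 1, 3, 3, 2 and 3 of these and 1 clock gene. With the replicate block 6 smooth muscle markers were called in place of 10. The median of the immediate early and handling genes lay between -0.19 and -0.018 with 1 library left out, that of the Sgk1 pathway between -0.056 and 0.079, and that of the relatives between -0.049 and 0.019. The sign of Pgr turned with median-of-ratios scaling (-0.019) and quantile normalization (-0.0054), and its difference ran from -0.078 to 0.23 with 1 library left out and was 0.36 without replicate 3 of both groups. Nr3c1 turned to 0.011 after rescaling to a sum of 1000000 and lay between -0.077 and 0.037 with 1 library left out, Per1 between -0.43 and 0.0028, and Mt1 between -0.84 and 0.059, and Mt1 was 0.0010 without replicate 3 of both groups. The causes of these changes were not tested. Klf15 is under the minimum mean of 5 FPKM, so that alternative gave it no value. Depth per library is unknown, so counting error could not be set beside the spread between libraries.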

Other observations

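Further responsive genes chosen after their values were seen lay in both directions. Ddit4, which encodes REDD1, a stress- and glucocorticoid-induced inhibitor of mTOR, had control levels of 8.17, 11.9 and 18.7 FPKM, against 34.9, 39.7 and 21.7 FPKM in the labelled deficient libraries. The groups did not overlap, and the log2 difference was 1.28 (SE 0.33, limma adjusted p = 0.099). Without replicate 3 of both groups it was 1.81 and was called (adjusted p = 0.015). Rgs2, a brake on contractile G protein signalling, measured 71.0, 56.0 and 58.6 FPKM across the controls, while the labelled deficient libraries gave 38.5, 37.9 and 47.6 FPKM, lower without overlap (log2 difference -0.57, SE 0.13, limma adjusted p = 0.074). Rgs2 was called without labelled deficient 3 (adjusted p = 0.039). The metallothionein gene Mt2 lay, like Mt1, highest in control 3. It read 153.8, 265.7 and 525.6 FPKM in the control libraries and between 168 and 195 FPKM in the labelled deficient libraries (limma adjusted p = 0.46).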
